A study of Drosophila melanogaster with 2 samples.

Results

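The regions described here are 269 genomic intervals in which replicate 2 of an Atf-2 chromatin immunoprecipitation and sequencing (ChIP-seq) experiment had strong signal, but which the reproducible peak list of the study left out. They were chosen by taking the strongest of the 30000 regions in the replicate 2 list, as many as the reproducible list has rows, and keeping those that shared no base with a row of that list. Of the regions taken, 2996 overlapped the reproducible list and 269, called members below, did not. The rule can also be read as asking for an equal number of regions after the overlapping ones are removed, and the values under that reading are given with the alternatives.

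The samples were whole Drosophila melanogaster embryos aged 0 to 24 h, with both sexes pooled. They came from a transgenic line whose Atf-2 ends in a C-terminal green fluorescent protein (GFP), and an antibody to GFP was used. There was 1 group with 2 samples, biological replicates 2 and 3. The chromatin was sonicated, and the stated fragment range was 200 to 800 bp. Signal therefore averages over all cell types and over the whole of embryogenesis, and it follows the tagged protein and not native Atf-2. No wild-type, input or mock sample was analysed here, so signal at a site cannot be set against embryos without the tag. The lists give no read totals, so sequencing depth is unknown and single signals carry no counting interval.

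Atf-2 belongs to the transcription factors with a basic leucine zipper (bZIP). The stress kinase p38 phosphorylates it, and in flies it is known for roles in stress responses and metabolism. In mammals its relatives bind the cAMP response element (CRE) as dimers, also together with Jun proteins. The irreproducible discovery rate (IDR) procedure compares the ranks of regions between replicate samples. The IDR list, called the reproducible list above, holds the strongest rows of the list called on both replicates together. Its border is thus a cut on pooled signal, and a region can be strong in 1 replicate and still be left out. A replicate 3 region was found for 99.7% of its rows, at replicate 3 ranks from 1 to 27761. Absence from the list is therefore not read as a failed check of that single region. The rows of the IDR list are called IDR peaks below.

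The letters under some of the strongest of the 269 regions show sequence that carried replicate 2 signal without a place in the IDR list. The 5 windows below reach 100 bp to each side of the summit and come from regions ranked 1867, 1997, 2037, 2110 and 2243 in replicate 2. They are the first 5 that qualified among the 20 strongest members: windows with UTR or coding bases and those on 1 chromosome arm were left out, so stronger members such as the one at aph-1 are not shown. The windows at CG9044, FASN1 and CG9674 had no region at all in the replicate 3 list, which holds for 39 of the 269, while the one at fbl had a region at rank 12885 and the one near SIFaR at rank 997. Sequences here and below are RefSeq's Release 6 (dm6) letters, written 5′ to 3′ on the strand given. Capitals mark the TATA box letters TATAAAA in the CG9044 window. In the fbl window they mark the 8-mer CAACACTG and 2 overlapping copies, 1 on each strand, of the 8-mer TTTAAAAA. These were among the motifs searched, and the other 3 windows held none of them.
CG9044, chr2L:5949230-5949430, plus strand: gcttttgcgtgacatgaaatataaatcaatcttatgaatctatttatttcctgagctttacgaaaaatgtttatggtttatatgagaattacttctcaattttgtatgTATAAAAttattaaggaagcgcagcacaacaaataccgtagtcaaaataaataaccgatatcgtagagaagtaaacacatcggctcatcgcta
fbl, chr3L:20384220-20384420, plus strand: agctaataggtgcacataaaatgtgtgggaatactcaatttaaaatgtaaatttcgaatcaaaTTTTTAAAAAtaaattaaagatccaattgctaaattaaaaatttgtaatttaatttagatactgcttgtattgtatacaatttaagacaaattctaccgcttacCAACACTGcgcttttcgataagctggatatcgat
FASN1, chr2L:3058750-3058950, plus strand: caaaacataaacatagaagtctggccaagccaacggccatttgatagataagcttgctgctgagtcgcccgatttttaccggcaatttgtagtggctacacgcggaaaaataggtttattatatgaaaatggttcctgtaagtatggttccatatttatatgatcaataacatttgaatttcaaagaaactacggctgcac
SIFaR, chr3R:21296202-21296402, plus strand: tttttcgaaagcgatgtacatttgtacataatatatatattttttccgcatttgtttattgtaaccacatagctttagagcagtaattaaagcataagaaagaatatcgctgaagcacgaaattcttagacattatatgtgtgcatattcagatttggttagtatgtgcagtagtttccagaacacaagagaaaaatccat
CG9674, chr3L:16807038-16807238, plus strand: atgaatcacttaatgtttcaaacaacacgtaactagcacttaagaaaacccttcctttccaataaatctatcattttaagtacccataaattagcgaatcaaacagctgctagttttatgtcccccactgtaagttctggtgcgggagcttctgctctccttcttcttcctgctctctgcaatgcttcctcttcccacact

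The summits at CG9044 and fbl were intergenic and close to a promoter, 120 and 109 bp upstream of a transcription start site (TSS). Those at FASN1 and CG9674 were in introns, 1861 and 593 bp from a TSS, and that near SIFaR was in an exon of lncRNA:Hsromega, 2304 bp from the TSS of SIFaR. The GC content of the windows was 30.8% at CG9044, 26.9% at fbl, 38.3% at FASN1, 30.8% near SIFaR and 40.8% at CG9674. The share of bases that the genome file marks as repeats or low complexity was 17.9% at CG9044, 43.8% at fbl, 18.9% at FASN1, 32.8% near SIFaR and 2.99% at CG9674.

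Sites of the bZIP family were rare in the 269 regions, and also in the sets they are compared with further below. The CRE, TGACGTCA on either strand, was found within 100 bp of the summit in 1 region, in an intron of CG12065, 63 bp from the summit. The C/EBP-ATF site TGATGCAA was found in 5 regions. The CRE and 4 of those 5 sites are shown because bZIP factors of the ATF group are known to bind such letters, and capitals mark the site.
CG12065, chrX:8575017-8575046, plus strand: ttttgacgctcTGACGTCAgctggatacat
kek5, chrX:19354747-19354776, minus strand: agctatgtacaTGATGCAAtagctataaaa
mRpS6, chr3L:4364547-4364576, minus strand: gtgttaacagcTGATGCAAggaaagtacta
Grip84, chrX:19565735-19565764, plus strand: cacaagcaactTGATGCAAattggcatttg
wts, chr3R:30805163-30805192, minus strand: atgcgcggtgtTGATGCAAccgtgggcagc

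These regions had replicate 2 signals close to that of most members. The CG12065 region had a signal of 56.9, and the others had 61.5 at kek5, 59.2 at mRpS6, 57.9 at Grip84 and 56.8 at wts. kek5 encodes a leucine-rich repeat membrane protein, mRpS6 a mitochondrial ribosomal protein, Grip84 a subunit of the gamma-tubulin complex and wts the Warts kinase of the Hippo pathway. The wts region also held the AP-1 site TGAGTCA and was the only 1 of the 269 with matches to more than 1 of the 4 bZIP sites searched.

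The DNA replication-related element (DRE), TATCGATA, is the site of DREF, a factor of promoters of growth and housekeeping genes. It is its own reverse complement and was found in 11 of the 269 regions, 10 of them within 500 bp of a TSS. Of these, 4 at promoters are shown with the only one away from a promoter, at CG3168, whose capitals run into a second, overlapping run of like letters.
B52, chr3R:13661235-13661264, plus strand: cccgcccaaaaTATCGATAggcgaaaaagt
Smn, chr3L:16581594-16581623, plus strand: ccgcacgatagTATCGATActtatcagcat
NELF-B, chrX:7728385-7728414, plus strand: atgtgcggtgtTATCGATAgtgcacgtatc
Rab30, chr2L:7032635-7032664, plus strand: gtttttctcggTATCGATAgatcgacgttt
CG3168, chrX:6741254-6741283, plus strand: gatcttggctaTATCGATAtcgataagtta

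B52 encodes a splicing factor of the SR family, Smn the survival motor neuron protein of spliceosome assembly, NELF-B a subunit of the negative elongation factor and Rab30 a small GTPase. The DRE lay 41 bp from the summit at B52, 38 bp at Smn, 29 bp at NELF-B, 42 bp at Rab30 and 93 bp at CG3168. The site of M1BP, GGTCACACT on either strand, is another element of housekeeping promoters. It was found in 8 of the 269 regions, all within 500 bp of a TSS, and 4 of these are shown with the site in capitals.
CG14715, chr3R:11674226-11674255, plus strand: gtagatctctGGTCACACTaaaccgcgagt
mbt, chrX:16610633-16610662, plus strand: ccacggcaacGGTCACACTgccgccattgc
IPIP, chr2L:6047969-6047998, plus strand: gggctagggtGGTCACACTggcgcagtaag
Lasp, chr3L:16711778-16711807, minus strand: atcgaatagatGGTCACACTgcaaagcaat

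mbt encodes a p21-activated kinase and Lasp a cytoskeletal LIM and SH3 protein. The site lay 59 bp from the summit at CG14715, 29 bp at mbt, 9 bp at IPIP and 87 bp at Lasp. The summits themselves were 40 bp from a TSS at CG14715, 9 bp at mbt, 28 bp at IPIP and 28 bp at Lasp.

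The 269 regions sat at the lower edge of the strongest replicate 2 regions and not at the top. Of the 500 strongest replicate 2 regions none was left out of the IDR list, and of those ranked 501 to 1000 there was 1. The number was 0 for ranks 1001 to 1500 and 3 for ranks 1501 to 2000, which is 0.6% of that stretch. It was 26 for ranks 2001 to 2500 (5.2%), 122 for ranks 2501 to 3000 (24.4%) and 117 for the last 265 ranks (44.2%). Since the members were selected on these ranks and on the IDR list, the counts are a description.

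Signals, in the units of the authors' peak caller, were correspondingly narrow in range. They ran from 55.6 to 135 with a median of 59.7 and quartiles of 57.4 and 63.5, and 16 regions were above 70. The 3 weakest members had signals of 55.69, 55.68 and 55.63. The next regions of the list that overlapped no IDR peak had 55.61, 55.58 and 55.54, so the border runs through a dense stretch of the list. The −log10 q-value that the lists also give was 3.84, its maximum in the replicate 2 list, for all 269 regions and could not order them. Of the 269, 267 had the caller's full width of 424 bp, and the remaining 2, nearest to aph-1 and tara, were 161 and 174 bp wide.

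Comparison sets were needed to read these values. Regions of like signal were the 267 replicate 2 regions among the same strongest ones that did overlap an IDR peak and had a signal from 57.5 to 63.5, within the quartiles of the members. The weaker regions were the 25738 of the replicate 2 list that ranked below the strongest ones taken and overlapped no IDR peak. That list holds background as well as peaks. Their −log10 q-value in replicate 2 had a median of 0.3, against 3.84 for the members. Many may be background, so contrasts with them are not contrasts of strong with weak Atf-2 sites. Differences between sets are given without a test: regions of 1 library share their embryos and are not replicates, and the exact (Clopper-Pearson) 95% intervals on shares cover counting error over regions only.

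**Figure D1:**
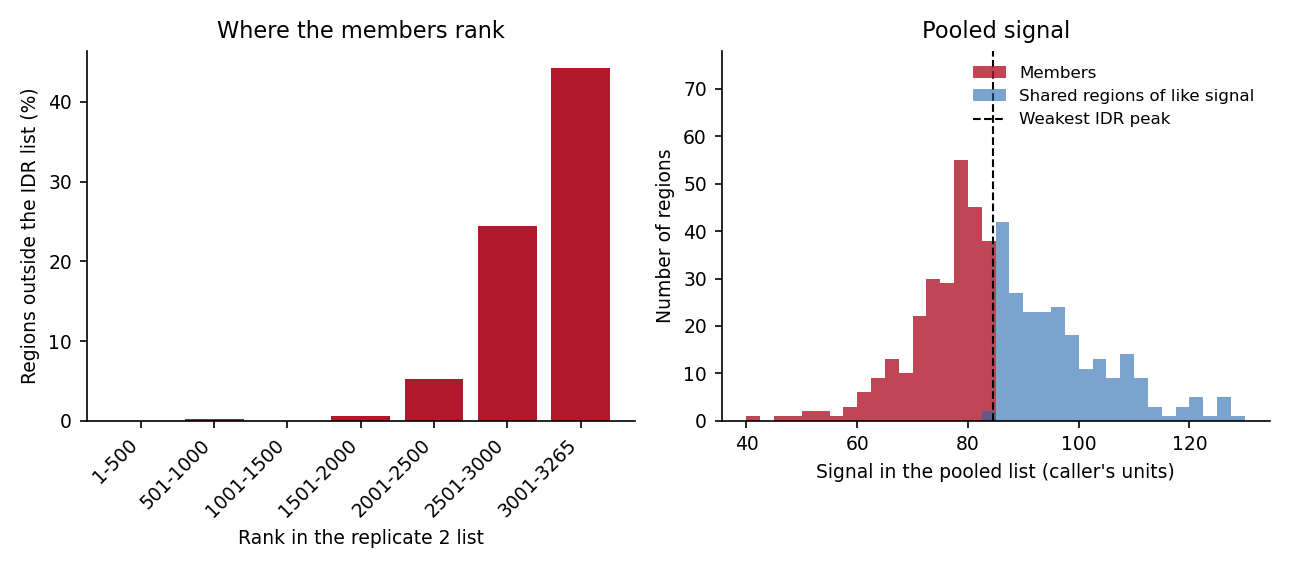
Left, share of replicate 2 regions that overlapped no IDR peak, by rank in the replicate 2 list, where bars start at 0; right, number of regions by signal in the pooled list in the caller's units, for the 268 members with a pooled region and the 267 shared regions of like signal, with the weakest IDR peak (84.6) as a dashed line. The left bars climb to 44.2% in the last stretch, and all members in the right panel lie below the line, most of them close to it; 33 of the shared regions, with signals above 130, are beyond the axis.

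In the list called on both replicates together, most of the 269 regions lay close under the threshold and some far below it. A pooled region was found for 268 of the 269, at ranks from 3267 to 9867 with a median of 3686. The median was 2659 for the shared regions of like signal. Of the 268, 181 ranked 4000 or better, 249 ranked 5000 or better and 19 ranked below that. The pooled signal had a median of 77.9 (range 42.5 to 84.6) in the members, 96.9 in the shared regions of like signal and 36.9 in the weaker regions. The highest pooled signal of a member was 84.55 and the lowest of an IDR peak 84.58, an order that the choice of members fixes, because the IDR list holds the strongest pooled rows. A pooled signal of 80 or more was found in 83 members.

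Replicate 3 had a region at most of these sites, but a weak one. A replicate 3 region of any rank overlapped 230 of the 269 members (85.5%, interval 80.7 to 89.5%), 267 of the 267 shared regions of like signal and 12340 of the 25738 weaker regions (47.9%). Among the strongest replicate 3 regions, taken in the same number as the IDR list, were those of 13 members (4.83%, interval 2.6 to 8.12%), against 63.3% of the shared regions of like signal (interval 57.2 to 69.1%) and 2.5% of the weaker regions. Down to rank 5000 there were 38 members in all, down to rank 10000 114 and down to rank 15000 166, while 64 had a rank beyond 15000 and 39 had no region. Leaving a region out of the IDR list selects for a low pooled signal and, through it, for a low rank in replicate 3. Nothing is therefore read from these shares about the members beyond their values.

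The median replicate 3 rank was 10164 for the 230 members with a region (737 to 29812), 2727 for the shared regions of like signal and 12360 for the 12340 weaker regions with a region. The median replicate 3 signal was 19.4 in the members, 36.1 in the shared regions of like signal and 17.8 in the weaker regions. The ratio of replicate 2 to replicate 3 signal had a median of 3.11 in the members, 1.66 in the shared regions of like signal and 1.33 in the weaker regions. Nothing in the sources says that the 2 lists share a scale, so a ratio above 1 is not by itself a difference in binding. The −log10 q-value of the replicate 3 region had a median of 0.657 in the members, 2.89 in the shared regions of like signal and 0.491 in the weaker regions. Of the 230 members with a replicate 3 region, 4 had one that itself overlapped an IDR peak. Replicate 3 ranks of the members thus ran from 737 to 29812, and 166 of the 230 were 15000 or better. The medians of the weaker regions leave out those without a replicate 3 region, a larger part of that set than of the members.

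**Figure D2:**
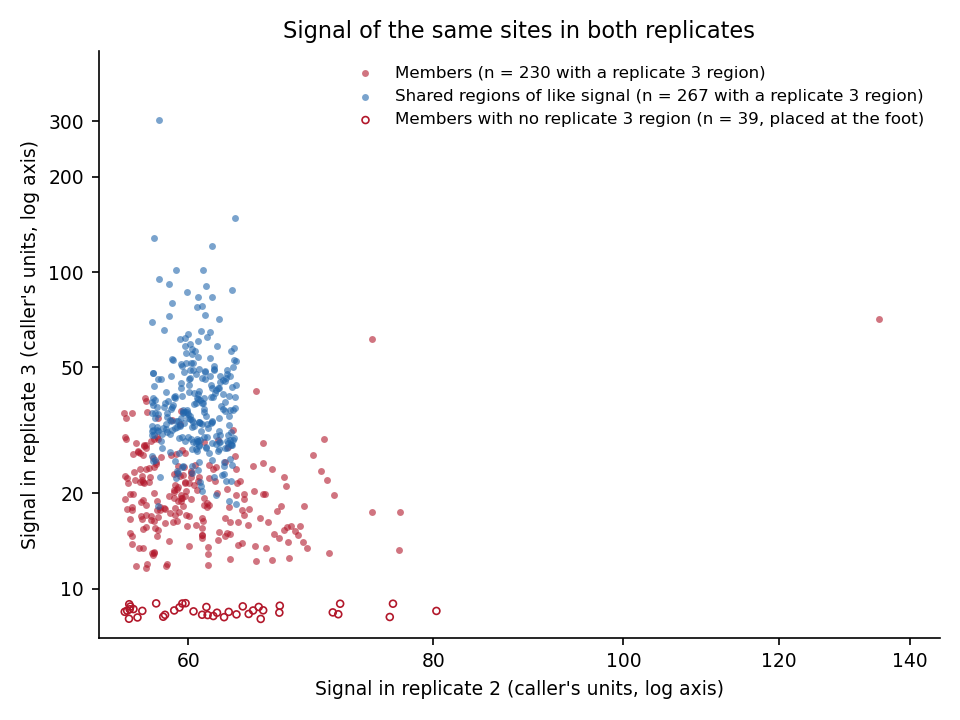
Signal in replicate 2 (horizontal) and replicate 3 (vertical), in the caller's units on log axes, for members (red) and for shared regions of like signal (blue); open red circles at the foot are the 39 members with no replicate 3 region and have no vertical value. Members with a region centre on a replicate 3 signal of 19.4 and the shared regions on 36.1, with overlap between them; the point at the far right is the aph-1 member.

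The 39 members without a replicate 3 region had a lower pooled signal than the other 230 and a like promoter share and GC content. Their median replicate 2 signal was 61.4, against 59.6 in the 230 with a region. Their median pooled signal was 67.1, against 78.5. The pooled list includes replicate 3, so a lower pooled signal is not independent of having no replicate 3 region. Within 500 bp of a TSS lay 20 of the 39 (51.3%), against 107 of the 230 (46.5%), and mean GC content was 38.6 ± 5.81% against 37.6 ± 6.59% (SD over regions). The strongest of them was nearest to CG9044, followed by jing, a zinc finger factor of tracheal and midline development, FASN1, a fatty acid synthase, CG9674, and Mef2, the MADS-box factor of muscle. CG9044 had a signal of 80.3 in replicate 2 and 82.8 in the pooled list. The region upstream of jing had 76.3 in replicate 2 and 81.5 pooled, and the FASN1 intron had 76.0 and 80.4. CG9674 had 71.7 and 76.0, and the Mef2 intron 71.5 and 79.3. All 5 regions lay at rank 3363 to 3821 in the pooled list, close under the IDR threshold.

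Among the 13 members that were strong in both replicates were 2 that lay directly beside an IDR peak. The aph-1 member, rank 755 in replicate 2 with a signal of 135, was the strongest of all 269 and the only one ranked better than 1500. aph-1 encodes a subunit of gamma-secretase, and the summit lay 57 bp upstream of its TSS. Its 161 bp, chr2L:2766061-2766221, began 13 bp from an IDR peak at chr2L:2765907-2766047. That IDR peak had a pooled signal of 247.5 and a replicate 2 signal of 175.0, and its replicate 3 region of signal 70.9 was the same one that overlapped the member. In the pooled list the member itself had a signal of 49.2 and rank 7495.

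The other close neighbour lay in lncRNA:Hsromega, the heat shock RNA omega gene whose transcripts form nuclear speckles. This member, chr3R:21296090-21296513, is nearest among protein-coding genes to SIFaR, the receptor of the neuropeptide SIFamide, and was 36 bp from an IDR peak of signal 120.5. It had a signal of 74.4 in replicate 2 and 61.3 in replicate 3 (rank 997), and it was the only member without a pooled region. The neighbouring IDR peak had 59.4 in replicate 2 and the same replicate 3 region. The tara member, the weakest of all with a signal of 55.63 and 174 bp wide, lay 402 bp from an IDR peak. tara encodes a regulator linked to the trithorax group.

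The other 10 of the 13 were of full width. Their replicate 3 ranks were 2037 at Mrp4, an ABC transporter gene, 2260 at SppL, a signal peptide peptidase-like protease gene, 2343 at kraken and 2685 at milt, the mitochondrial transport adaptor Milton. They were 2728 at CG17261, 2766 at Asator, 2959 at CG6398, 2967 at Datp, 3045 at EcR, which encodes the ecdysone receptor, and 3212 at IPIP. Mrp4 had a signal of 65.0 in replicate 2, 42.1 in replicate 3 and 76.2 pooled, with its summit 14 bp from the TSS. EcR had 58.8 in replicate 2, 34.1 in replicate 3 and 78.9 pooled, in an intron 363 bp upstream of a TSS. IPIP had 59.4 in replicate 2, 33.1 in replicate 3 and 47.4 pooled, at pooled rank 8062. That these regions were among the strongest of each replicate and below the weakest IDR peak in the pooled list follows from how they were chosen.

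By position in genes the shares of the 269 regions were nearer to those of the IDR peaks and the shared regions of like signal than to those of the weaker regions. Promoter summits, defined as those at most 500 bp from the TSS of a protein-coding gene, made up 127 of 269 members (47.2%, interval 41.1 to 53.4%), against 42.7% of the shared regions of like signal, 49.5% of the IDR peaks and 22.7% of the weaker regions (interval 22.2 to 23.2%). Coding exons held 2 member summits (0.743%, interval 0.0902 to 2.66%), at CG12560 and l(3)mbn, against 0.375% of the shared regions of like signal, 0.49% of the IDR peaks and 22.0% of the weaker regions. The member intervals overlapped those of the first 2 sets in both classes and were apart from those of the weaker regions. Replicate 2 signal itself differs between these sets, and its part in the class shares was not tested.

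Introns held 123 member summits (45.7%), against 44.6% of the shared regions of like signal and 41.0% of the weaker regions. Intergenic sequence held 106 (39.4%), against 41.6% and 24.5%. The 5′ UTRs held 21 (7.81%), against 8.99% and 7.4%, noncoding exons 12 (4.46%), against 3.37% and 2.26%, and 3′ UTRs 5 (1.86%), against 1.12% and 2.81%. Among the classes that do not overlap, the largest differences from the weaker regions were therefore in coding exons and intergenic sequence. The promoter class, which overlaps these, also differed (47.2% against 22.7%), so intergenic summits include some close to a TSS.

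**Figure D3:**
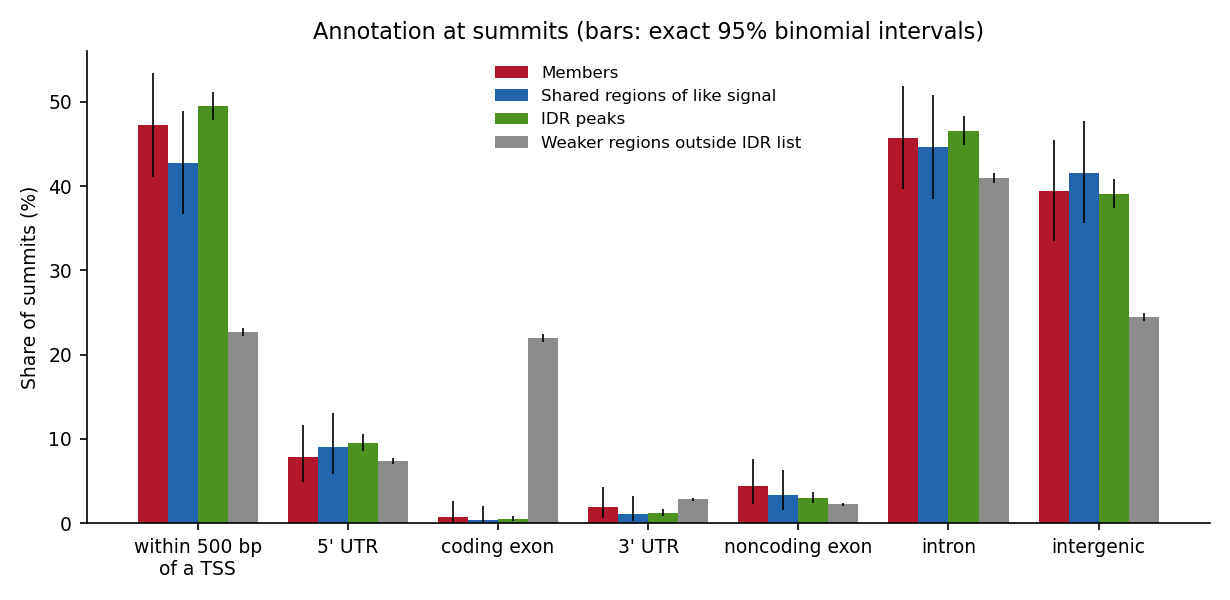
Share of summits (vertical, percent, from 0) by position, for the 269 members, the 267 shared regions of like signal, the IDR peaks and the 25738 weaker regions outside the IDR list; lines on the bars are exact 95% binomial intervals. The first class can overlap the other 6, which add up to all summits of a set. Members stand at 47.2% within 500 bp of a TSS and 0.743% in coding exons, and the weaker regions at 22.7% and 22.0%.

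At promoters the summits lay just upstream of the TSS. Of the 127 promoter summits of members, 105 (82.7%, interval 75 to 88.8%) were upstream, against 80.7% in the shared regions of like signal, 82.7% in the IDR peaks and 2916 of 5835 in the weaker regions. The 100 bp before the TSS held 51 member summits (19% of all 269) and the 100 bp before those held 31 (11.5%), while the first 100 bp of the transcript held 12 (4.46%). Within 50 bp of a TSS on either side were 40 members (14.9%, interval 10.8 to 19.7%), against 8.24% of the shared regions of like signal (5.24 to 12.2%) and 10.7% of the IDR peaks. Those intervals overlap. The median distance to the nearest protein-coding TSS was 663 bp in the members, 864 bp in the shared regions of like signal and 1940 bp in the weaker regions. TSSs of at least 2 genes lay within 500 bp in 47 members (17.5%), against 13.1% of the shared regions of like signal and 4.41% of the weaker regions.

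**Figure D4:**
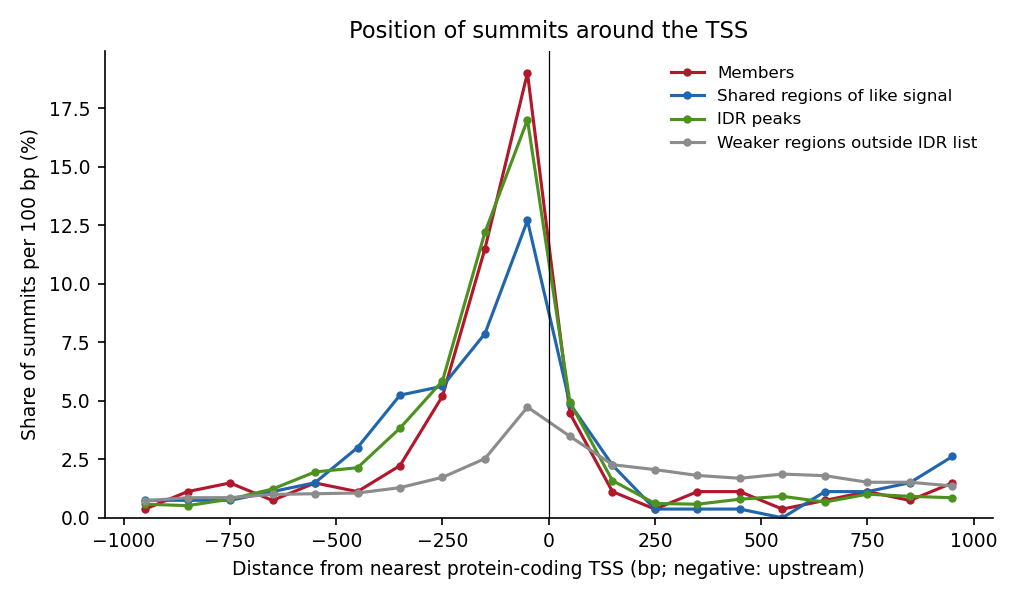
Share of all summits of a set (vertical, percent per 100 bp) by signed distance to the nearest protein-coding TSS (horizontal, bp, negative upstream), for the same 4 sets. The member line peaks at 19% in the 100 bp before the TSS and drops to 4.46% in the 100 bp after it, and the line of the weaker regions is flatter.

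The genes next to the members were mostly not those with an IDR peak at the promoter. Of 13945 protein-coding genes, 177 (1.27%) had a member summit within 500 bp of a TSS, and 258 (1.85%) were the nearest gene of at least 1 member. Of the 177, 15 (8.47%) also had an IDR summit within 500 bp of a TSS, while 14.9% of all genes did. Since a member by its definition overlaps no IDR peak, this share is lowered by the choice. Of the 127 promoter members, 113 lay at genes with no IDR summit at the promoter. Only 10 genes were nearest to at least 2 members and 1 to at least 3.

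That 1 gene was Dad, the inhibitory Smad of the Dpp pathway, itself a transcriptional target of the pathway. All 3 members lay in its introns, 2086, 4626 and 4830 bp from the TSS. Their signals in replicate 2 were 58.1, 60.1 and 56.8. The second and the third are 204 bp apart by summit, overlap each other and share 1 region in each of the other lists (replicate 3 signal 16.9, pooled signal 78.2), so they are not separate measurements; they were the only overlapping pair among the 269. The first had a replicate 3 signal of 26.1 and a pooled signal of 82.0. Within 2000 bp of Dad there was also 1 IDR peak, of signal 261.3.

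The genes nearest to the 20 strongest members were of many kinds. Their replicate 2 signals ran from 68.7 to 135, with 80.3 and 76.9 next in line. By position 7 were promoter summits, and by class 14 lay in introns, 4 in intergenic sequence, 1 in a 5′ UTR and 1 in a noncoding exon. Of the 20, 6 had no replicate 3 region, 7 had one ranked 10000 or better and 7 one ranked below that. Among them were psq, a BTB-domain factor (replicate 2 signal 76.8, replicate 3 signal 13.2), jing, Mef2, and chn, a zinc finger factor of sensory organs (70.7 and 13.0). Each of these 4 summits was away from the promoter, at 1598 bp from a TSS for psq, 1489 bp for jing, 4467 bp for Mef2 and 3732 bp for chn.

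The promoter summit between CG5498 and fbl, a pantothenate kinase gene, had 76.9 in replicate 2 and 17.5 in replicate 3. Gnpat, an acyltransferase of ether lipid synthesis, had 74.5 in replicate 2 and 17.4 in replicate 3, in its 5′ UTR. The summit in not, which encodes the ubiquitin protease of the SAGA complex, had 68.7 and 14.1, and that in l(1)G0196, an inositol phosphate kinase gene, had 70.4 and 29.7. The last lay 859198 bp from the nearest IDR peak, the greatest such distance of the 269. The Tim17a2 region (69.5 and 26.5), nearest to the TSS of a mitochondrial import gene, was in an intron of Hph, the prolyl hydroxylase of the hypoxia pathway.

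The remaining regions of the 20 had like values. Replicate 2 and replicate 3 signals were 71.2 and 19.8 at CG1628, 70.6 and 22.1 at hebe, 70.1 and 23.5 at CG10383, 69.0 and 13.5 at ebd2, and 68.7 and 18.2 at CG13293. CG17121 had 71.1 in replicate 2 and no replicate 3 region. In each of these 5 pairs replicate 3 was the lower, as in all the members with a region in both lists, where the lowest ratio of the signals was 1.21.

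Genes of the pathway in which Atf-2 works were next to a few of the 269 regions. Of 20 annotated bZIP factor genes none had a member at the promoter and none was nearest to one, while 8 had an IDR summit at the promoter. Of 8 genes of the p38 pathway 1 had a member, Mekk1, the kinase kinase kinase upstream of p38. Its summit was 195 bp upstream of a TSS, with signals of 59.3 in replicate 2, 17.4 in replicate 3 and 70.4 pooled, and 4 of the 8 genes had an IDR summit. Of 18 genes of the Jun kinase (JNK) pathway 1 had a member at the promoter, Traf4, an adaptor of that pathway. Its signals were 57.6 in replicate 2, 13.0 in replicate 3 and 76.8 pooled, and 3 of the 18 genes had an IDR summit. aop, an ETS-domain repressor, and msn, a kinase upstream of JNK, were each nearest to a member at a greater distance, 2531 and 14013 bp. For the p38 list the share with a member at the promoter was 12.5%, and for the JNK list 5.56%, beside 1.27% of all genes. By nearest gene, 3 of the 18 JNK genes (16.7%) and 1 of the 8 p38 genes had a member, beside 1.85% of all genes. These shares rest on 1 to 3 genes and were not tested.

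Other gene groups stand beside the same shares of all genes, 1.27% with a member at the promoter and 1.85% nearest to one. Of 86 genes of cytosolic ribosomal proteins, 3 had a member at the promoter, RpL7A and RpS14b among them (3.49%), while 56 had an IDR summit. RpS14b had signals of 62.8 in replicate 2, 15.0 in replicate 3 and 78.9 pooled. RpL7A had 62.6 in replicate 2, no replicate 3 region and 64.0 pooled.

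Of 19 genes of the ecdysone response and of nuclear receptors, 5 were nearest to a member (26.3%, against 1.85% of all genes), EcR at its promoter and Eip74EF, Eip93F, Hr4 and ftz-f1 in introns far from the TSS. Those 4 summits were 7863, 20728, 6793 and 16545 bp from the TSS. Replicate 2 signals were 62.8 at Eip74EF, 57.1 at Eip93F, 57.1 at Hr4 and 63.9 at ftz-f1, and replicate 3 ranks 8739, 28223, 11483 and 21060 in the same order. The Eip74EF window was 81.6% repeat-marked and 18.9% GC, the lowest GC content of all 269. These genes have long introns, and the part of gene length in being the nearest gene was not tested.

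Among 28 chromatin genes 2 had a member at the promoter (7.14%), CTCF, which encodes an insulator protein (63.5 in replicate 2, 21.6 in replicate 3), and M1BP, which shares a divergent promoter with CG8202 (63.2 and 31.8). The pooled signal at M1BP and CG8202 was 84.5, among the highest of the members. Of 39 Hox and patterning genes none had a member at the promoter and 2, ems and ftz, were nearest to one, 13958 and 5193 bp away. Of 37 genes in a mixed list of neural genes and cell recognition genes 1, Nrt, was nearest to a member. Of 17 heat shock genes and 10 circadian genes none was.

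In base composition the members were as poor in GC as the IDR peaks. The mean GC content within 100 bp of the summit was 37.7 ± 6.49% in the members (SD over 269 regions), 37.8 ± 6.63% in the shared regions of like signal, 37.0 ± 6.41% in the IDR peaks and 44.6 ± 9.46% in the weaker regions. Values of the members ran from 18.9% to 60.2%, with 78 of the 269 between 30% and 35% and 79 between 35% and 40%. Promoter members averaged 38.7 ± 6.21% and the 142 others, called distal, 36.8 ± 6.62%, a difference within the spread of either. The repeat-marked share of bases averaged 17.7% in the members, 18.1% in the shared regions of like signal and 13.7% in the weaker regions. A homopolymer run of 8 was present in 12.3% of the members, 15.4% of the shared regions of like signal and 10.6% of the weaker regions. No member summit lay in an annotated transposable element, where 0 of 269 allows a share of up to 1.12%, against 0.594% in the weaker regions.

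**Figure D5:**
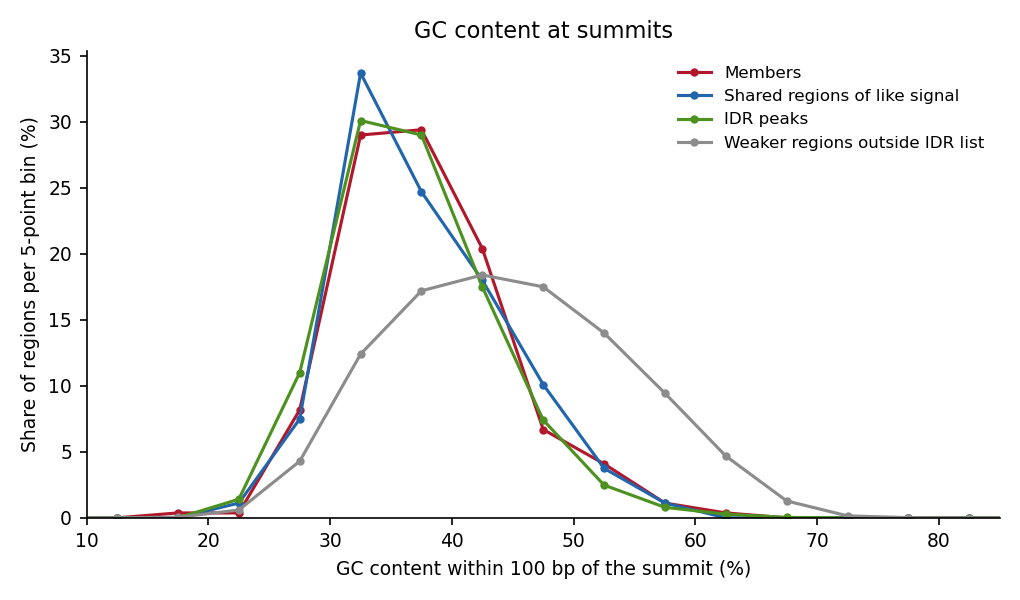
Share of regions (vertical, percent per bin of 5 percentage points) by GC content within 100 bp of the summit (horizontal, percent), for the same 4 sets. Member bins are highest at 30 to 35% (29%) and 35 to 40% (29.4%), where the weaker regions hold 12.4% and 17.2% and spread to higher GC content.

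For each of the 15 motifs searched the member interval held the share of the IDR peaks, which does not show that the shares are alike. The CRE of CG12065 shown above made a share of 0.372% in the members (interval 0.00941 to 2.05%), against 0.375% in the shared regions of like signal, 0.49% in the IDR peaks and 0.346% in the weaker regions. The AP-1 site TGAGTCA was found in 4 members, at not, cDIP, dl and wts (1.49%), against 1.5% of the shared regions of like signal and 1.92% of the weaker regions. The PAR bZIP site TTACGTAA was found in none of 269, which allows a share of up to 1.12%, against 0.49% of the IDR peaks. The TGATGCAA site was found in 1.86% of the members (interval 0.606 to 4.28%), against 1.12% of the shared regions of like signal, 0.643% of the IDR peaks and 0.548% of the weaker regions (0.461 to 0.646%). With 5 regions behind it, the member interval overlapped all 3 of the others. Any of the 4 bZIP sites was found in 9 members, a count that was not made for the other sets.

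The DRE and the M1BP site were each found in more members than any 1 of the bZIP sites. The DRE was found in 4.09% of the members (interval 2.06 to 7.2%), against 2.25% of the shared regions of like signal, 3.74% of the IDR peaks and 1.35% of the weaker regions (1.21 to 1.5%). Within promoter summits alone the share was 7.87% in the members (3.84 to 14%) and 5.26% in the shared regions of like signal. It was 7.24% in the IDR peaks and 4.49% in the weaker regions, and the member interval overlapped all of these. The M1BP site was found in 2.97% of the members (1.29 to 5.78%), against 1.5% of the shared regions of like signal and 0.828% of the weaker regions. Within promoter summits the M1BP site was in 6.3% of the members (2.76 to 12%) and 3.51% of the shared regions of like signal. There it was in 2.41% of the IDR peaks and 3.2% of the weaker regions, and the member interval overlapped all of these. No distal member held the M1BP site, which was rare at distal summits of every set. It was in 0 of 153 distal shared regions of like signal, 0.243% of distal IDR peaks and 0.131% of distal weaker regions.

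Among other motifs, the TATA box letters TATAAAA were found in 15.2% of the members, against 12.7% of the shared regions of like signal and 7.93% of the weaker regions. The GAGA site GAGAGAG was found in 4.46% of the members, against 3.0% and 3.2%, and the Zelda site CAGGTAG, of the activator of the early embryonic genome, in 1.49%, against 1.87% and 1.25%. The E-box CACGTG was found in 11 members (4.09%, interval 2.06 to 7.2%), 8 of them distal. Its share was 0.749% in the shared regions of like signal (0.0908 to 2.68%), 2.24% in the IDR peaks and 2.96% in the weaker regions, so that the member interval overlapped that of each of these sets. Among distal summits alone it was in 5.63% of the members (8 of 142, interval 2.46 to 10.8%), 0 of 153 shared regions of like signal (0 to 2.38%), 1.64% of the IDR peaks (1.08 to 2.37%) and 2.96% of the weaker regions (2.73 to 3.21%). There the member interval lay above those of the shared regions and the IDR peaks and overlapped that of the weaker regions. This split was singled out of 15 motifs and 2 places after its values were seen, and it was not tested.

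The 8-mers that lead the IDR list were also found in the members. CACAGTGG was found in 4.09% of the members (interval 2.06 to 7.2%), against 5.24% of the shared regions of like signal, 5.05% of the IDR peaks and 1.53% of the weaker regions (1.38 to 1.69%). CACTGAGA was found in 4.09%, against 3.37%, 4.1% and 1.52% of the same sets, and CAACACTG in 3.35%, against 3.37%, 3.31% and 1.09%. Over all summits, each member interval of these 3 lay above that of the weaker regions and held the share of the IDR peaks. By place, the CAACACTG intervals of members and weaker regions overlapped at promoters (2.76 to 12% and 2.21 to 3.05%). They also overlapped at distal summits (0.0178 to 3.86% and 0.541 to 0.77%). Those of CACAGTGG and CACTGAGA overlapped at promoters. Distal member intervals lay above for CACAGTGG (2 to 9.89% against 1.32 to 1.67%) and CACTGAGA (2.46 to 10.8% against 1.54 to 1.91%). The A-rich TTTAAAAA was found in 9.29% of the members, 12% of the shared regions of like signal, 10.5% of the IDR peaks and 4.46% of the weaker regions, and AAAAAAAT in 9.67%, 9.36%, 12% and 7.24% of the same sets. CAACACTG and CACTGAGA differed by place: CAACACTG was in 8 of 127 promoter members and 1 of 142 distal ones, and CACTGAGA in 3 promoter and 8 distal members. In the IDR peaks the same split was 5.75% of promoter and 0.91% of distal peaks for CAACACTG, and 1.61% and 6.55% for CACTGAGA. These 8-mers were chosen because they led in the IDR list, which holds no member.

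Picked by the size of the difference between members and weaker regions, the leading 8-mers were mostly runs of A and T. AAAATGTA, which also holds a G, came first, in 9.29% of the members. Its share was 3.37% in the shared regions of like signal, 6.22% in the IDR peaks and 3.15% in the weaker regions. ATATTTTA followed with 8.92% of the members, 5.99% of the shared regions of like signal and 3.68% of the weaker regions. The other exceptions in the first 10 were AACAGCTG and AAACAGCT. AACAGCTG was in 7.06% of the members and 3.75% of the shared regions of like signal. Its share was 3.43% in the IDR peaks and 1.88% in the weaker regions. AAACAGCT was in 6.32%, 2.62%, 2.73% and 1.34% of the same sets, in that order. AACAGCTG contains CAGCTG, letters known as a site of basic helix-loop-helix factors. It shares most of its letters with AAACAGCT, so the 2 are not separate. The leading 8-mers were chosen by their values out of 143 present in at least 5% of members or of weaker regions. Of the 143, 141 were more frequent in the members, and the lower GC content of the members moves with this count.

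The members lay nearer to IDR peaks than the weaker regions did. The median gap was 7783 bp in the members (quartiles 2085 and 17681 bp) and 9952 bp in the weaker regions (3512 and 24977 bp). A gap of at most 1000 bp was found for 42 members (15.6%, interval 11.5 to 20.5%), against 8.15% of the weaker regions (7.82 to 8.49%). At most 10000 bp away were 155 members (57.6%), against 50.2%. The 42 near regions had a median replicate 3 signal of 21.6, against 19.0 in the 114 members more than 10000 bp from an IDR peak, and promoter summits made up 35.7% of the near and 53.5% of the far ones.

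Over the chromosome arms the members followed length. Arm 3R carried 69 of the 269 (25.7%, or 2.15 per Mb), 3L 56 (1.99 per Mb), 2R 50 (1.98 per Mb), X 47 (2 per Mb) and 2L 46 (1.96 per Mb). The small chromosome 4 carried 1, at Asator, or 0.742 per Mb. For the X chromosome the share of members was 17.5%, against 18.9% of the IDR peaks and 15.5% of the whole replicate 2 list.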

How the data were processed

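ChIP-seq peak lists of 2 samples (Atf-2-GFP embryos, biological replicates 2 and 3) were used. For each build, dm6 and dm3, there were 4 lists: 1 per replicate, 1 from the pooled replicates and the IDR list. Per the deposited readme texts, replicate and pooled lists hold peaks and background called on alignments with a control, and the IDR list derives from them. Peak caller, aligner, IDR threshold and tool versions: not given in the sources used here. For each region the lists deposited by the authors hold a signal, in their peak caller's units, and a −log10 q-value. Neither was rescaled. Replicate 1 and control samples were not analysed here. The labels give separate biological replicate numbers, and with 1 group no comparison between conditions was possible.

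The 3265 strongest replicate 2 rows by signal were taken, as many as there are IDR rows, and those sharing at least 1 bp with an IDR row were removed. Where several regions of another list overlapped a member, the one of highest signal was used. Ranks count from 1 at the highest signal. Summits were placed on the Ensembl release 115 annotation (transposable elements kept apart) and the RefSeq Release 6 sequence, where UTRs and coding exons came before noncoding exons, introns and intergenic sequence and a 5′ UTR before all. Counting starts at 1. Windows for GC content and motifs reach 100 bp to each side of the summit, and both strands were searched. The upper limit for a count of 0 is 3 divided by the total. No test was made, because the members were selected on the signals. The members, motifs and gene lists were chosen with earlier results of these data known. Named genes are the nearest ones of the 20 strongest members and of the 5 strongest without a replicate 3 region, any nearest to 3 or more members, and any of the bZIP, p38 and JNK lists with a member within 2000 bp; other genes, including those of the 13 members strong in replicate 3 and those beside printed sites, were named after their values were seen. One member gene is not reported here. Steps were checked on simulated intervals. The work was done with pandas 2.3.3, scipy 1.17.1, numpy 2.4.6 and matplotlib 3.10.9 under Python 3.11.15.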

Additional observations from a re-analysis of the deposited data

How the results depend on the processing

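With 13 alternatives 54 values were recomputed, and 26 stayed within the 95% interval of the value reported (for counts, within 1.5 times) while 28 moved further. Under the other reading of the rule, the strongest regions after all overlapping ones are removed (signal down to 34.1, rank to 6784), the number is fixed by the rule; the set had 37.8% promoter summits, 7.08% coding exon summits, a mean GC content of 39.9% and a replicate 3 region for 80.1%. With 2 times as many of the strongest rows taken, 3031 regions overlapped no IDR peak, and the same shares were 38.2%, 6.47%, 39.7% and 80.6%. With the stronger of 2 equal portions of the rows, 1 region was left, at aph-1, with a promoter share of 100%, 0% for coding exons, CRE and DRE, 41.8% GC, and a replicate 3 region in 100% at rank 737. An overlap of 50% of both intervals in place of 1 bp gave 458 regions, a replicate 3 region for 91.3% and a median replicate 3 rank of 4306. Without replicate 2, the same rule on the replicate 3 list gave 585 regions, with 7.52% coding exon summits and 42.2% GC; the promoter share was 45.5%. Without replicate 3 there is no IDR list to set against, and that was not run. The promoter share was 39.8% within 250 bp, 56.9% within 1000 bp and 38.7% with the outermost TSS of each gene only. GC content over 250 bp on each side was 39.8%. Requiring 50% overlap with the replicate 3 region gave 75.5%. The dm3 lists (3062 IDR rows) gave 256 regions. Leaving out the members within 2000 bp of an IDR peak left 205 and moved none of the 8 values. No paired analysis was possible because there is 1 group and no test. Depth is unknown.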

Other observations

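Genes of noncoding RNA are set beside the 1.27% of protein-coding genes with a member at the promoter. Of 290 tRNA genes and 269 snoRNA genes none had a member summit within 500 bp of its TSS, while 10 tRNA genes and 12 snoRNA genes had an IDR summit. Of 32 snRNA genes 1 had a member (3.12%), snRNA:U5:63BC, a gene of the spliceosomal U5 RNA, and 7 had an IDR summit. Of 3261 other noncoding RNA genes 9 had a member (0.276%), among them lncRNA:Hsromega, and 149 had an IDR summit.

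Within the 269, TATA box letters were found in 15 of 127 promoter members (11.8%) and 26 of 142 distal members (18.3%, interval 12.3 to 25.7%). In the shared regions of like signal the shares leaned the same way, 9.65% at promoters and 15% away from them. In the IDR peaks they were 16.4% at promoters and 13.6% away from them. GC content moves with these shares, at 38.7% in promoter members and 36.8% in distal ones, and its part was not tested.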
